A study of Mus musculus with 6 samples.

Results

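The genes described here make cholesterol, sense its level and carry or take it up, in livers of mice given an shRNA against S100a11 or a scrambled shRNA. The set holds 27 genes of the 43346 in the deposited count table, found by their symbols alone, and all 27 were present. Each had 1 row. RNA was sequenced from whole liver of mice on the FFC diet, in a dietary model of metabolic dysfunction-associated steatohepatitis, after silencing with an adeno-associated virus 8 construct. The labels give 3 libraries as S100a11 knockdown (2, 3 and 2600) and 3 as scrambled control (28, 30 and 31), and both groups carried an shRNA and ate the FFC diet. For strain, age, sex and the promoter driving the shRNA, nothing was given in the sources used here. Whether each library is a separate animal is not stated, and p-values then measure only the spread between these libraries, which may be technical. The comparison asks how silencing S100a11 alters these transcripts.

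Hepatocytes build cholesterol from acetyl-CoA through HMG-CoA, mevalonate, farnesyl diphosphate, squalene and lanosterol. The enzymes are controlled largely by the transcription factor SREBP2, the product of Srebf2. SREBP2 is held in the endoplasmic reticulum with its escort Scap when an Insig protein binds Scap in sterol-rich membranes. When sterol falls, the complex moves to the Golgi, proteases cut SREBP2 and its free part binds sterol regulatory elements in promoters of the enzyme genes. It usually does so beside NF-Y, which binds CCAAT boxes, and Sp1, which binds GC boxes.

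Promoters were examined because they show what the members share in sequence. In the 250 bases before the annotated start, 23 of the 27 members had an entry in the RefSeq table (build GRCm38.p6), and Fdps, Fdft1, Sqle and Stard4 had none. A CCAAT box (CCAAT, either strand) stood in 21 of these 23 genes, which is 91.3%, and in 37.5% of all 27025 genes in the table and 39.8% of those tested here. A GC box (CCGCCC, either strand) stood in 20 of 23, or 87.0%, against 35.4% of all genes and 59.0% of those tested. An E-box (CACGTG) stood in 5 of 23, or 21.7%, against 6.86% of all genes and 9.23% of those tested. The sterol regulatory element in its 9-base form TCACNCCAC stood in Hmgcs1 alone of the 23, and in 1.22% of all genes. Its first 8 bases, TCACNCCA, which the longer form contains, stood in Hmgcs1, Srebf2 and Msmo1, and in 4.20% of all genes. These matches are descriptions of the letters, not of binding.

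The promoters printed are those of the 3 genes with the 8-base match and those of Ebp and Mvd, a pair called below with an entry in the table. Each runs 5′ to 3′ on the gene's strand over 250 bases before the start in GRCm38.p6, with matches to TCACNCCA, TCACNCCAC, CCAAT and CCGCCC on either strand in capitals. The Hmgcs1 promoter lies at chr13:119690101-119690350 on the plus strand, that of Srebf2 at chr15:82147019-82147268 on the plus strand, and that of Msmo1 at chr8:64733579-64733828 on the minus strand. The Ebp promoter lies at chrX:8193513-8193762 and that of Mvd at chr8:122443423-122443672, both on the minus strand.
Hmgcs1: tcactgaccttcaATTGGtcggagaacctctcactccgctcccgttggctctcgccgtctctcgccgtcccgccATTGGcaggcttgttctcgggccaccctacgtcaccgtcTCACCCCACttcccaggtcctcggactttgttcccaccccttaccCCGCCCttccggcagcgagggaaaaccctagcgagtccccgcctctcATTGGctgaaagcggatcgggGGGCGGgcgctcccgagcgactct
Srebf2: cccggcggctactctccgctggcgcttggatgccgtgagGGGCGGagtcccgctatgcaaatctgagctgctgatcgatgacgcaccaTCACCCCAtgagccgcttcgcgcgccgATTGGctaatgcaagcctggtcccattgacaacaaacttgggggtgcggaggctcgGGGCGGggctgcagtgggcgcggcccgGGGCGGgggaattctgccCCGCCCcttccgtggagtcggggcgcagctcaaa
Msmo1: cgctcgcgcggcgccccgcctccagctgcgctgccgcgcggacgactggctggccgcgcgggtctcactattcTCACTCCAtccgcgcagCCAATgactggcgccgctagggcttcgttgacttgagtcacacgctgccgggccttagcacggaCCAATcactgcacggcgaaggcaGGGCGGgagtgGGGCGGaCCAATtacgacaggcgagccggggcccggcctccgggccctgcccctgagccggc
Ebp: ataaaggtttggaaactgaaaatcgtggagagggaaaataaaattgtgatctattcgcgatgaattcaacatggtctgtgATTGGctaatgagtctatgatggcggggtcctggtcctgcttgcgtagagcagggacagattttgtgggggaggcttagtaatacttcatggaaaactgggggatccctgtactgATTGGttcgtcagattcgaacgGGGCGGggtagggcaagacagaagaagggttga
Mvd: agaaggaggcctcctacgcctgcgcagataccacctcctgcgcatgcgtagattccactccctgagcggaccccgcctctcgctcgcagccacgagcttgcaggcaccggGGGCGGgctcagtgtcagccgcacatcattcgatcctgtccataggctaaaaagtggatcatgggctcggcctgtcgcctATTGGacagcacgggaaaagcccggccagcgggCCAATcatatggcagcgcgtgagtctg
The match TCACCCCAC in Hmgcs1 began 137 bases before the start, TCACCCCA in Srebf2 began 162 bases before it, and TCACTCCA in Msmo1 177 bases before it. Hmgcs1 and Msmo1 each held 3 CCAAT boxes, Ebp and Mvd 2 each, and Srebf2 held 1 CCAAT box with 4 GC boxes.

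Before the members, the silenced gene was examined in every library. S100a11 stood at 16.0, 3.55 and 3.41 CPM with S100a11 shRNA (libraries 2, 3 and 2600), against 15.9, 22.9 and 30.0 CPM with scrambled shRNA (libraries 28, 30 and 31). CPM are counts scaled to a common library total with TMM factors. The library labelled S100a11 shRNA 2 therefore held as much S100a11 as the lowest scrambled library, and each direction below is that of the libraries labelled S100a11 shRNA. The log2 change was -1.57 ± 0.56 (SE; edgeR adjusted p = 0.095). Without library 3, 2600, 28, 30 or 31 it ran from -1.78 to -1.22 (edgeR adjusted p of 0.12 to 0.25). Without library 2 it was -2.75 (edgeR adjusted p = 0.00044). Library 2 stood out by this same gene, so a stronger fall without it was set in advance and is no support. Permuting the group labels over log2 CPM (exact, two-sided) gave p = 0.2, and no p under 0.1 can be had with 3 libraries a group. Total counts ran from 53517387 to 69874237 with S100a11 shRNA and from 57717111 to 78091845 with scrambled shRNA. The non-coding gene Gm26917 took 10.8% of counts in library 2600, against 3.16% to 6.44% in the other libraries.

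Of the 27 members, 1 was higher and 4 were lower in S100a11 shRNA livers at an adjusted p under 0.05 over all 19352 genes tested. Ebp, a sterol isomerase, was higher. Hmgcs1, which makes HMG-CoA, Mvd, which makes isopentenyl diphosphate, Sqle, which oxidises squalene, and Npc1l1, a cholesterol importer, were lower. The 5 calls are 18.5% of members, and 14.1% of all genes were called. The 1 rise is 3.70% of members against 5.82% of all genes, and the 4 falls are 14.8% against 8.28%. Counts this small beside the background are not read as a result about the set. The median log2 change of members was 0.07, and that of all genes 0.04, with 17 members above 0 and 10 below. Without any 1 library the number of members called lower was 4 (without library 2), 1 (without library 2600) or 0 (without library 3, 28, 30 or 31). The shares of all genes called lower in those settings were 12%, 6.29% and 2.54% to 5.18%, so calls over all genes moved too. The number called higher was 2 without library 2, 1 without library 3 or 28 and 0 without library 2600, 30 or 31. The shares of all genes called higher were 9.13%, 2.16% to 2.55% and 1.12% to 4.07%. All 27 members passed the filter on low counts, 1 of them, Npc1l1, only through the scrambled group. The filter thus favoured a fall of Npc1l1, and its place among the 4 falls is no support.

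**Figure D1:**
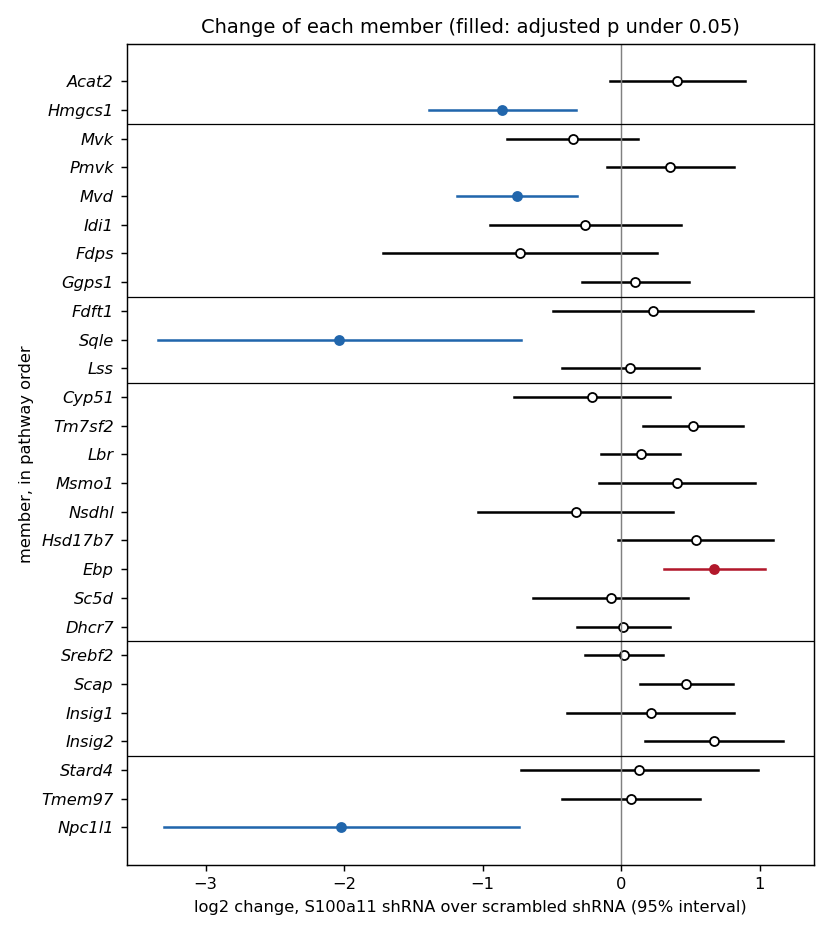
Log2 change of each member, S100a11 shRNA over scrambled shRNA (horizontal axis), in pathway order from top to bottom; bars are 95% intervals from edgeR, and filled points passed an adjusted p of 0.05. Ebp lies right of 0 at 0.67, Hmgcs1 and Mvd left of it at -0.86 and -0.75, and Sqle and Npc1l1 near -2, while most intervals cross 0.

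The groups did not overlap for 9 members. All 3 S100a11 shRNA libraries stood above all scrambled libraries for Tm7sf2, Lbr, Ebp, Scap and Insig2, and below them for Hmgcs1, Mvd, Sqle and Npc1l1. Over all genes 16.5% stood apart upward and 18.1% downward, 34.7% in all, so 9 of 27 is near the background too. The 9 include Npc1l1, which passed the filter only through the scrambled libraries.

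The first steps join acetyl-CoA units into HMG-CoA. Hmgcs1, the cytosolic HMG-CoA synthase (chromosome 13, 119690462 to 119708086 in mm10, plus strand), stood at 65.0, 36.8 and 71.4 CPM in S100a11 shRNA libraries 2, 3 and 2600, against 111, 89.9 and 113 CPM in scrambled libraries 28, 30 and 31. Every S100a11 shRNA library was below every scrambled one, and library 3 was the lowest. The means were 57.8 ± 18.4 and 105 ± 12.8 CPM (SD, n = 3 each). Hmgcs1 was thus 1.81-fold lower, a log2 change of -0.86 ± 0.24 (SE; edgeR adjusted p = 0.043). This call ended without library 3, 28, 30 or 31 (adjusted p of 0.064 to 0.12) and held without library 2 or 2600. In the GENCODE M21 annotation 12.1% of its exon bases lie in the antisense gene Gm48342, whose count was not used here. Acat2, the cytosolic thiolase of the preceding step, stood at 39.6, 24.0 and 23.6 CPM in S100a11 shRNA livers, against 21.3, 19.96 and 24.7 CPM in scrambled livers. Library 2 alone set it apart, and its log2 change of 0.40 ± 0.21 did not pass (adjusted p = 0.25). Without library 2 the Acat2 change was 0.08.

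Mevalonate is phosphorylated by Mvk and Pmvk and decarboxylated by Mvd to isopentenyl diphosphate, which Idi1 isomerises and Fdps joins into farnesyl diphosphate. Mvd (chromosome 8, 122433596 to 122443422, minus strand) stood at 2.06, 1.84 and 2.05 CPM in S100a11 shRNA livers, against 3.31, 3.33 and 3.37 CPM in scrambled livers. It was 1.69-fold lower with groups apart (1.98 ± 0.12 CPM with S100a11 shRNA and 3.34 ± 0.03 CPM with scrambled shRNA, SD, n = 3 each; log2 change -0.75 ± 0.19, SE, edgeR adjusted p = 0.034). The call held without library 2 and ended without any other library (adjusted p of 0.055 to 0.13). Mvd is also uncertain for another reason. It lies inside the span of Gm20388 in the deposited table, a gene with 27.1 times its count that was itself higher (log2 change 0.59 ± 0.16, SE; edgeR adjusted p = 0.043), and how reads were divided is not given.

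The other mevalonate genes did not pass the threshold. Fdps stood at 27.2, 18.5 and 6.34 CPM in S100a11 shRNA libraries 2, 3 and 2600, against 21.2, 27.7 and 37.9 CPM in scrambled libraries 28, 30 and 31. Library 2 lay among the scrambled values and library 2600 far below them, a 4.29-fold range within the group. Its log2 change was -0.73 ± 0.44 (adjusted p = 0.30), or -1.24 without library 2 (edgeR adjusted p = 0.049) and -0.34 without library 2600 (0.45). Mvk, Idi1, Pmvk and Ggps1, the last of which makes geranylgeranyl diphosphate, had log2 changes of -0.35, -0.26, 0.35 and 0.10 with adjusted p of 0.28 to 0.74. Without library 2 the changes of Mvk, Idi1 and Pmvk were -0.55, -0.64 and 0.16, and without library 2600 those of Mvk and Idi1 were -0.18 and -0.03. Without library 31 that of Idi1 was -0.09. In the GENCODE M21 annotation Fdps shares 26.7% of its exon bases with Gm43738 on the same strand, whose count was not used here. Ggps1 shares 5.4% of its exon bases with Arid4b on the other strand, which held 6.03 times its count.

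Fdft1 makes squalene, Sqle oxidises it in a rate-limiting step of the pathway, and Lss closes the rings to lanosterol. Sqle (chromosome 15, 59315077 to 59331192, plus strand) stood at 2.45, 0.40 and 0.77 CPM in S100a11 shRNA libraries 2, 3 and 2600, against 2.72, 5.57 and 6.80 CPM in scrambled libraries 28, 30 and 31. The groups did not overlap, but library 2 came close to scrambled library 28, and libraries 3 and 2600 held only 25 and 34 counts. It was 4.10-fold lower (1.21 ± 1.09 CPM with S100a11 shRNA and 5.03 ± 2.09 CPM with scrambled shRNA, SD, n = 3 each; log2 change -2.04 ± 0.58, SE, edgeR adjusted p = 0.048). Without library 2 the change was -3.19 and the call held. Without any other library it ended (adjusted p of 0.051 to 0.14), and so it did with RLE factors (0.052) or a filter of at least 1 CPM in 3 libraries (0.054).

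Sqle's neighbours in the pathway gave no call. Fdft1 stood at 34.1, 21.2 and 14.1 CPM in S100a11 shRNA livers, against 17.3, 15.3 and 26.6 CPM in scrambled livers, with groups that overlap and a log2 change of 0.23 ± 0.32 (adjusted p = 0.68). Without library 2 the sign turned, to -0.19. Fdft1 shares 18.9% of its exon bases with the cathepsin gene Ctsb on the other strand, which held 24.6 times its count, and the strand setting of the counting is not given. Lss had a log2 change of 0.06 with a 95% interval of -0.43 to 0.56.

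The steps after lanosterol are covered by 9 members, of which 1 was called. Ebp, the isomerase that shifts a double bond of the sterol ring (chromosome X, 8185329 to 8193512, minus strand), stood at 98.9, 92.2 and 102 CPM in S100a11 shRNA livers, against 69.4, 47.9 and 66.3 CPM in scrambled livers. Every S100a11 shRNA library was above every scrambled one, and the 3 lay close together. Ebp was 1.59-fold higher (97.6 ± 4.88 CPM with S100a11 shRNA and 61.2 ± 11.6 CPM with scrambled shRNA, SD, n = 3 each; log2 change 0.67 ± 0.16, SE, edgeR adjusted p = 0.028). The call held without library 2 or 28 and ended without library 3, 2600, 30 or 31 (adjusted p of 0.064 to 0.10). With library totals alone the Ebp change was 0.32 (adjusted p = 0.16). That scaling moved the median of all genes to -0.32, and relative to that median Ebp was 0.64 higher, as against 0.63 with TMM. Scaling moves all genes nearly alike, so this agreement was set in advance and is no support for the call.

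Tm7sf2 and Lbr both encode reductases of the sterol ring, and Lbr is also a receptor of the inner nuclear membrane. Tm7sf2 stood at 23.2, 23.1 and 25.4 CPM in S100a11 shRNA livers, against 14.8, 15.1 and 20.1 CPM in scrambled livers. The groups were apart, and the log2 change of 0.52 ± 0.16 missed the threshold (adjusted p = 0.062). It passed with DESeq2 (0.024) and with limma voom with quality weights (0.037). Tm7sf2 shares 12.1% of its exon bases with Vps51 on the same strand, which held 1.69 times its count. Lbr lay between 18.3 and 18.9 CPM in S100a11 shRNA livers and between 16.5 and 17.1 CPM in scrambled livers, apart by a small margin (log2 change 0.14 ± 0.13, adjusted p = 0.51).

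The other post-lanosterol enzymes gave overlapping groups. Hsd17b7, a keto-sterol reductase, stood at 39.3, 27.6 and 21.2 CPM in S100a11 shRNA livers, against 16.9, 18.1 and 25.7 CPM in scrambled livers (log2 change 0.54 ± 0.25, adjusted p = 0.18, or 0.24 without library 2). Msmo1, the sterol methyl oxidase, had a log2 change of 0.40 ± 0.25 (adjusted p = 0.32), or 0.11 without library 3 and 0.27 without library 30. Nsdhl, the dehydrogenase that acts after it, stood at 12.1, 7.99 and 4.73 CPM in S100a11 shRNA livers, against 9.62, 8.88 and 12.8 CPM in scrambled livers (log2 change -0.33 ± 0.31, adjusted p = 0.52). Nsdhl lay within the scrambled values in library 2 and well below them in library 2600. Its change was -0.74 without library 2 (edgeR adjusted p = 0.061), -0.06 without library 2600 and -0.15 without library 31. Cyp51, the lanosterol demethylase, Sc5d, the lathosterol oxidase, and Dhcr7, the last reductase, had log2 changes of -0.21, -0.08 and 0.02. Their 95% intervals ran from -0.78 to 0.35, -0.64 to 0.48 and -0.32 to 0.35.

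**Figure D2:**
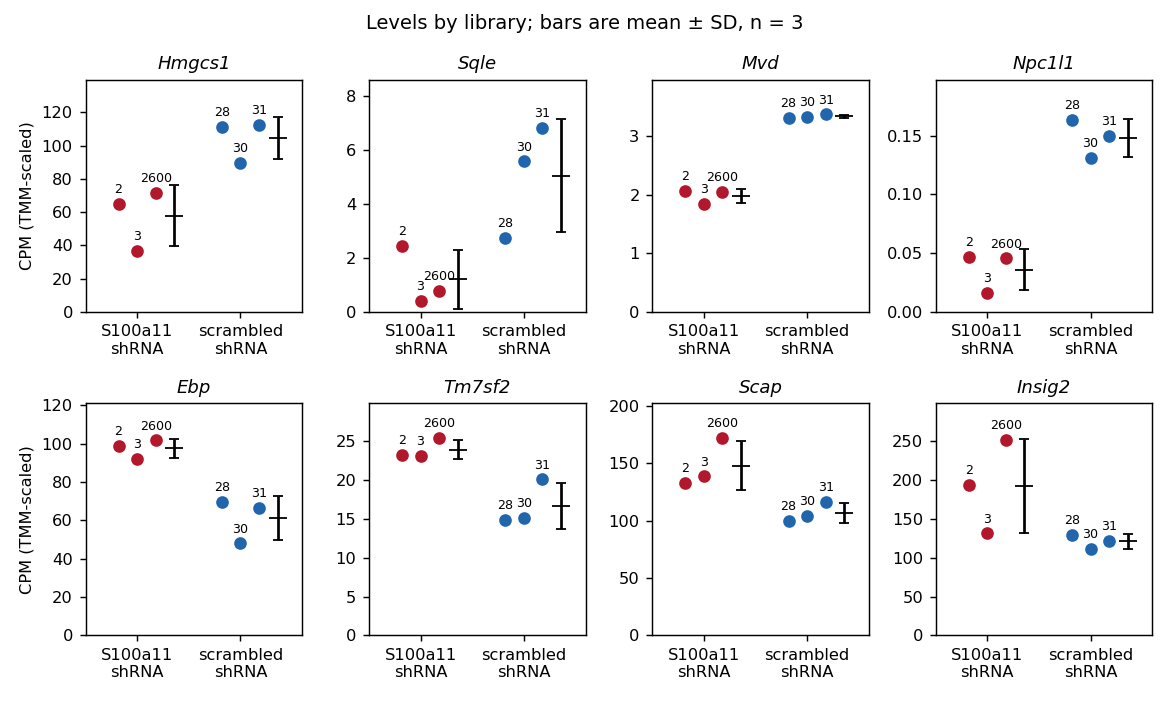
TMM-scaled CPM (vertical axes, from 0) of 8 members whose groups did not overlap, by library; numbers are the library numbers, red points S100a11 shRNA, blue points scrambled shRNA, and bars mean ± SD with n = 3. The upper row holds the 4 members called lower and the lower row Ebp, called higher, with Tm7sf2, Scap and Insig2, which did not pass the threshold. Npc1l1 passed the filter on low counts only through the scrambled libraries.

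Of the 4 genes of the sensing machinery edgeR called 0. At an unadjusted p under 0.05 there were 2, Scap and Insig2. The share of all genes at that cutoff was not worked out, so this count is not read as a result. DESeq2 called both, where it called 8.38% of all genes higher. Srebf2, which encodes SREBP2, stood at 70.5, 68.3 and 66.2 CPM in S100a11 shRNA livers, against 64.0, 64.4 and 74.2 CPM in scrambled livers. Its log2 change was 0.02, with a 95% interval of -0.26 to 0.30. Scap, the escort of SREBP2, stood at 133, 138 and 172 CPM in S100a11 shRNA livers, against 99.9, 104 and 116 CPM in scrambled livers. All 3 values were above the scrambled ones, library 2600 most (log2 change 0.47 ± 0.15, adjusted p = 0.067). Without library 2 the Scap change was 0.51 and passed (edgeR adjusted p = 0.032), as it did with DESeq2 (0.032) and voom with quality weights (0.040).

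Insig1 and Insig2 encode the endoplasmic reticulum proteins that hold Scap back. Insig1 is itself a target of SREBP2, and Insig2 has a liver transcript that insulin lowers. Insig2 stood at 194, 131 and 251 CPM in S100a11 shRNA libraries 2, 3 and 2600, against 130, 111 and 122 CPM in scrambled libraries 28, 30 and 31. Library 3 was barely above scrambled library 28, and the log2 change of 0.67 ± 0.22 missed the threshold (adjusted p = 0.077). It passed without library 3 (0.88, edgeR adjusted p = 0.034) and with DESeq2 (0.039). Without library 2600 the Insig2 change was 0.42 (adjusted p = 0.21), and voom with quality weights gave 0.51 (0.12). Insig2 has 3 starts in the RefSeq table, which counts per gene do not tell apart. Insig1 stood at 100.4, 78.8 and 51.1 CPM in S100a11 shRNA livers, against 70.5, 47.2 and 81.4 CPM in scrambled livers, with overlapping groups (log2 change 0.21 ± 0.27, adjusted p = 0.65). In library 2600 Insig1 was the lowest and Insig2 the highest of the 3 S100a11 shRNA libraries.

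The last 3 members carry or import sterol, and 1 of them was called. Stard4, a cytosolic cholesterol carrier, stood at 44.7, 26.95 and 14.2 CPM in S100a11 shRNA livers, against 22.2, 20.1 and 36.2 CPM in scrambled livers. Its values in library 2 and library 2600 lay above and below every scrambled value, a 3.14-fold range (log2 change 0.13 ± 0.38, adjusted p = 0.85). Tmem97, a membrane protein that binds the lysosomal sterol exporter, had a log2 change of 0.07 ± 0.22. Npc1l1, the intestinal cholesterol importer that mouse liver hardly makes, had 3, 1 and 2 counts in S100a11 shRNA libraries 2, 3 and 2600, against 11, 9 and 13 counts in scrambled libraries 28, 30 and 31. Summed, these 6 and 33 counts give a ratio of 0.237 (exact 95% interval 0.081 to 0.572, counting error only, without the selection by the filter) after scaling to library size. Its call (edgeR adjusted p = 0.043) had to come from a gene that passed the filter through the scrambled libraries only. It ended without library 2, 3, 2600, 28 or 30 (adjusted p of 0.064 to 0.17), and without library 31 the gene was not tested. The 4 intestinal markers Vil1, Fabp2, Muc2 and Apoa4, of which 2 fell, summed to 1016 to 2450 CPM in S100a11 shRNA livers and 3257 to 4324 CPM in scrambled livers, nearly all of it Apoa4, which liver also makes. Their part in the Npc1l1 result was not tested.

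For many members the libraries of a group stood in the same order. Library 2600 was the lowest of the S100a11 shRNA libraries for 17 of 27 members, and for 35.0% of all genes tested. Library 2 was the highest of that group for 18 members, and for 37.8% of all genes. In the scrambled group, library 31 was the highest for 22 members, and for 41.1% of all genes, and library 30 the lowest for 17, against 34.4%. These counts describe the libraries and carry no test, since members of a library share its RNA and scaling.

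The size of the spread differed by group. The highest S100a11 shRNA library held a median of 1.87 times the lowest over members, and 1.49 times over all genes. In the scrambled group the same ratio was 1.28 over members and 1.29 over all genes. The widest S100a11 shRNA ranges were those of Sqle (6.12-fold), Fdps (4.29-fold), Stard4 (3.14-fold), Nsdhl (2.57-fold) and Fdft1 (2.41-fold), with Npc1l1 set aside for its few counts. The narrowest were those of Lbr (1.03-fold) and Srebf2 (1.06-fold).

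Relative to the scrambled mean of each member, the median log2 level over the 27 was 0.26, 0.11 and -0.42 in S100a11 shRNA libraries 2, 3 and 2600, against -0.04, -0.14 and 0.18 for scrambled shRNA (28, 30 and 31). Over all genes these medians lay between -0.01 and 0.05. Library 2, where S100a11 was not low, thus had the highest member median, and library 2600 the lowest of all 6. Library 2600 also had the fewest counts and the largest Gm26917 share, and the part of either in this spread was not tested. It was nonetheless the highest S100a11 shRNA library for 6 members, Hmgcs1, Tm7sf2, Lbr, Ebp, Scap and Insig2.

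**Figure D3:**
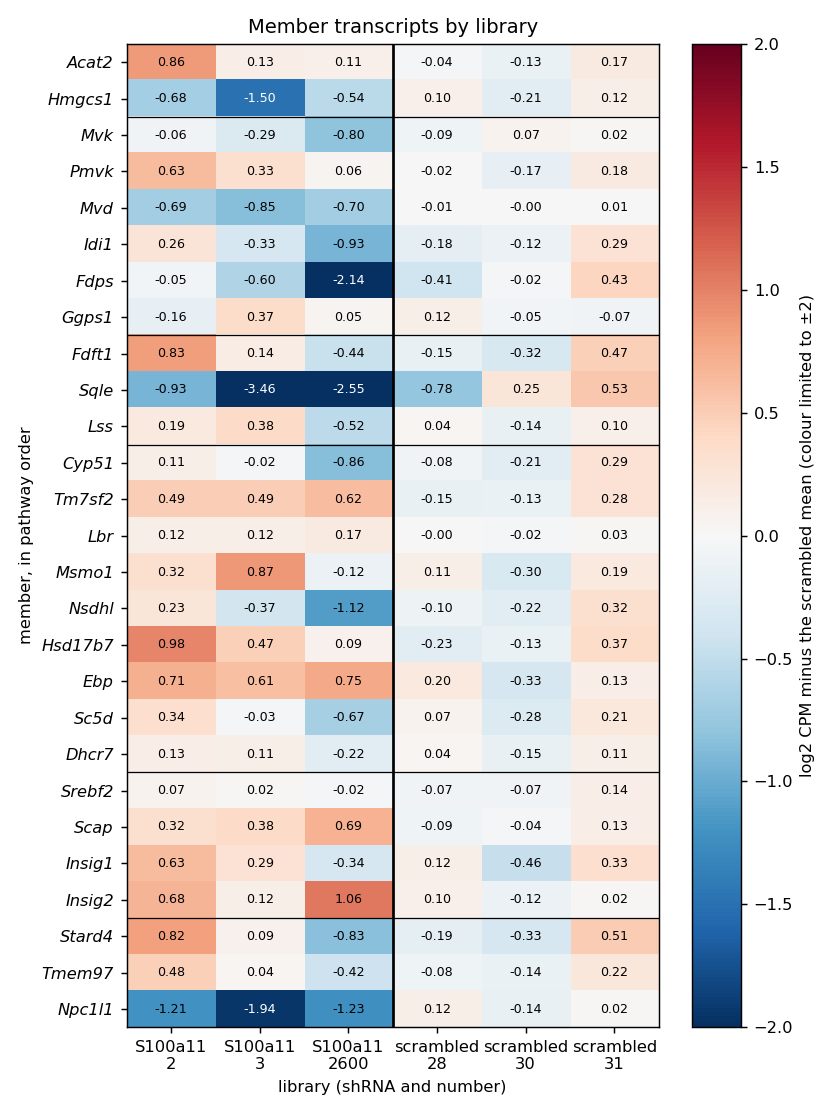
Log2 CPM (prior count 2) of each member in each library minus the mean of that member over the scrambled libraries; rows follow the pathway and columns are libraries, with S100a11 shRNA left of the thick line, red above and blue below the scrambled mean. Fdps, Nsdhl, Stard4 and Idi1 are blue in library 2600 and near or above 0 in library 2, while Ebp, Tm7sf2 and Scap are red in all 3 S100a11 shRNA libraries.

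Levels per length spread over a wide range along the pathway. CPM per kb of the gene length in the deposited table was highest for Sc5d, at 84.9 in S100a11 shRNA livers and 89.4 in scrambled livers. Insig2 followed at 55.3 and 34.8, then in scrambled livers Hmgcs1 (17.9 in S100a11 shRNA livers, 32.4 in scrambled livers), Tmem97 (27.8 and 26.5) and Ebp (42.2 and 26.5). After Sc5d and Insig2, the next highest was Ebp in S100a11 shRNA livers and Hmgcs1 in scrambled livers. The lowest levels per kb were those of Mvd (1.12 and 1.90), Idi1 (0.75 and 0.91), Sqle (0.22 and 0.91) and Npc1l1 (0.0081 and 0.033). Neighbours in this order, such as Tmem97, Ebp, Scap and Insig1 in scrambled livers at 24.6 to 26.5, lay within the spread between libraries.

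**Figure D4:**
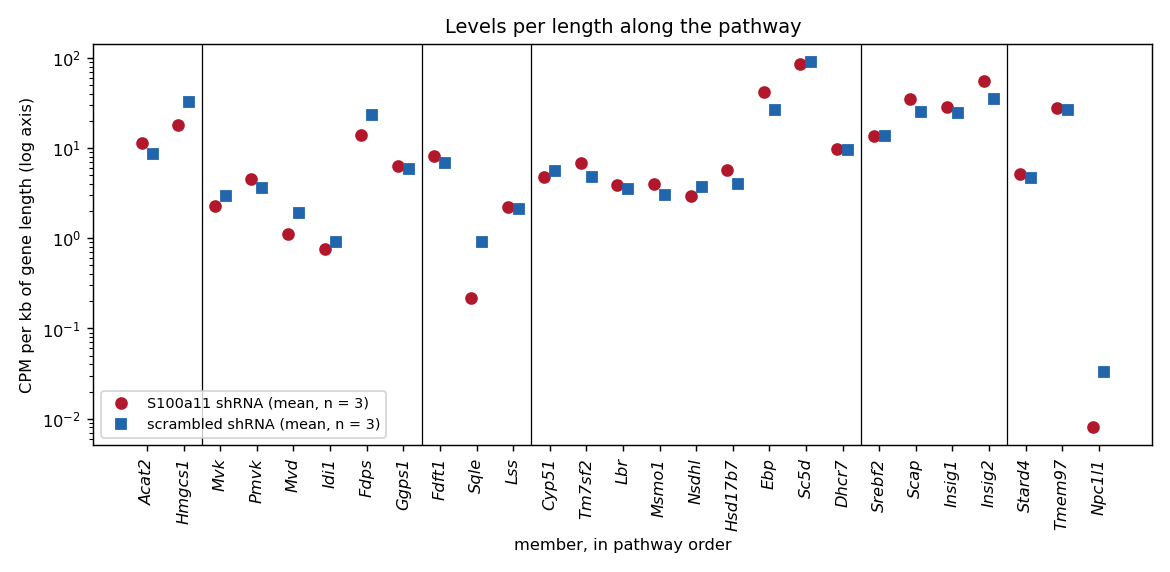
Mean CPM per kb of gene length (log axis) of each member in pathway order, red circles S100a11 shRNA and blue squares scrambled shRNA, n = 3 each. Sc5d is the highest and Npc1l1 the lowest in both groups, and the visible gaps between groups are those of Hmgcs1, Mvd, Fdps, Sqle, Ebp, Insig2 and Npc1l1.

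Of 50 other genes of the pathway, 3 were higher and 0 lower in S100a11 shRNA livers, or 6% called against 14.1% of all genes. At an unadjusted p under 0.05 there were 13. The share of all genes at that cutoff was not worked out, so this count is not read as a result. DESeq2 called 6 higher and 2 lower, where it called 8.38% of all genes higher and 11% lower. Their median log2 change was 0.16, against 0.04 over all genes. By role, 0 of 6 synthesis genes, 1 of 10 SREBP processing and enzyme turnover genes, 0 of 6 uptake genes, 1 of 11 esterification and transport genes, 1 of 8 LXR and efflux genes and 0 of 9 isoprenoid branch genes were called. Without library 2 the calls were 5 higher and 3 lower, and without library 3, 30 or 31 they were 1 higher and 0 lower. Over all genes 9.13% were higher and 12% lower without library 2. Without library 3, 30 or 31 the shares were 1.12% to 2.16% higher and 2.54% to 3.47% lower.

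Lcat, which encodes the plasma enzyme that esterifies cholesterol on lipoproteins, stood at 186, 171 and 199 CPM in S100a11 shRNA livers, against 85.9, 79.6 and 115 CPM in scrambled livers. It was 1.98-fold higher (185 ± 13.9 CPM with S100a11 shRNA and 93.5 ± 19.0 CPM with scrambled shRNA, SD, n = 3 each; log2 change 0.99 ± 0.17, SE, edgeR adjusted p = 0.0087) and passed under every alternative run. Abcg8, a canalicular sterol exporter, stood at 259, 307 and 275 CPM in S100a11 shRNA livers, against 224, 147 and 136 CPM in scrambled livers (log2 change 0.73 ± 0.20, SE, edgeR adjusted p = 0.044). Its groups were apart, library 28 being the nearest of the scrambled ones. The call ended without library 3, 2600, 30 or 31 (adjusted p of 0.087 to 0.17), with upper-quartile factors (0.069), the 1 CPM filter (0.0501) and library totals alone (0.19). Relative to the median of all genes Abcg8 was 0.69 higher with library totals, as with TMM, which follows from the scaling and is no support. Its partner Abcg5 had a log2 change of 0.56 ± 0.20 (adjusted p = 0.093, or 0.045 without library 28).

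Mbtps1, the protease that first cuts SREBP, stood at 93.3, 102 and 113 CPM in S100a11 shRNA livers, against 76.7, 74.7 and 73.1 CPM in scrambled livers. Its groups were apart (log2 change 0.45 ± 0.13, SE, edgeR adjusted p = 0.046), and the call held without library 2, ended without any other library (adjusted p of 0.11 to 0.16). It also ended with upper-quartile factors (0.096), no filter (0.073), the 1 CPM filter (0.052), voom (0.051) and library totals alone (0.63). Relative to the median of all genes Mbtps1 was 0.41 higher with library totals, as with TMM, which again follows from the scaling. Soat1, a cholesterol acyltransferase abundant in macrophages and chosen after its values were seen, stood at 25.5, 14.8 and 21.8 CPM in S100a11 shRNA livers, against 32.2, 30.4 and 42.1 CPM in scrambled livers (log2 change -0.76 ± 0.22, adjusted p = 0.0503). Soat1 passed without library 2 (-0.97, edgeR adjusted p = 0.011) and with every other scaling, filter and tool run but RLE factors (adjusted p of 0.0087 to 0.049). It did not pass with RLE factors (0.053) or without library 3, 2600, 28, 30 or 31 (0.093 to 0.16). Acat1, the mitochondrial thiolase, and Acly, which supplies cytosolic acetyl-CoA, had log2 changes of 0.42 and -0.18 and did not pass (0.21 and -0.35 without library 2). Neither did Lrp1, a receptor for lipoprotein remnants (0.46, or 0.26 without library 2600).

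Markers of the cells of whole liver differed between the groups, and in bulk RNA fewer cells of a type and less RNA per cell cannot be told apart. Of 9 hepatocyte markers tested, 2 rose and 0 fell, with a summed level of 51932 to 65754 CPM in S100a11 shRNA livers and 37464 to 47099 CPM in scrambled livers. Most of that sum was Alb and Apob, whose groups overlapped. Neither was called (log2 change 0.26 ± 0.43 and 0.38 ± 0.35, SE, edgeR adjusted p = 0.73 and 0.52). All 8 cholangiocyte markers fell (122 to 141 against 468 to 577 CPM summed), as did all 6 of lipid-associated macrophages (89.8 to 175 against 447 to 626 CPM) and 6 of 8 stellate and fibroblast markers (442 to 782 against 960 to 1361 CPM). Of 6 resident macrophage markers 1 rose, and of 6 sinusoidal endothelial markers 1 rose and 1 fell. Of 5 T and B cell markers 1 fell, and of 3 neutrophil markers tested 0 passed, with edgeR and also at an unadjusted p under 0.05. Over all genes 14.1% were called, 5.82% higher and 8.28% lower, and the smaller of these marker counts are not read as results. No marker tested was at 0 in any library, and the part of these cells in the changes of Hmgcs1, Mvd, Sqle, Ebp, Lcat and Soat1 was not tested.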

How the data were processed

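Whole-liver RNA was depleted of ribosomal RNA and made into stranded libraries, per the labels' protocols. The authors deposited 1 table of unnormalized counts, with genes named by Ensembl identifier, and the build is mm10, per the submitters' processing notes. Aligner, counting tool, strand setting and treatment of overlapping genes have no entry in the sources used here. Members and lists were chosen with earlier results of these data known.

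Counts were analysed with edgeR 4.0.16 in R 4.3.3: filterByExpr (count minimum 10, total minimum 15) kept 19352 genes, TMM factors scaled the libraries, and a quasi-likelihood F test compared the groups with Benjamini-Hochberg adjustment over all genes tested. A gene was called at an adjusted p under 0.05. Intervals are at 95%. The test was tried on counts simulated under its own model, with levels and spreads fitted to these libraries. Such counts cannot check effects shared by the genes of a library, so the trial is no support for the calls. No pair of libraries agreed within sampling noise. Totals of 53517387 to 78091845 counts limit precision for genes of few counts, such as Npc1l1, Mvd and Sqle. Alternatives were other scalings and filters, DESeq2 1.42.0, limma 3.58.1 voom and leaving out each library.

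The text names S100a11, every member, other pathway genes past the threshold and up to 3 more per role of high mean CPM, and some of these are not reported here. Positions come from the count table, and overlaps from GENCODE M21, both mm10. Promoters come from RefSeq on GRCm38.p6, the same assembly, and were searched on both strands.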

Additional observations from a re-analysis of the deposited data

How the results depend on the processing

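No paired analysis was possible because the groups share no replicate number in the labels. Leaving out 1 library in turn gave 0 to 2 members higher and 0 to 4 lower, 1 to 5 other pathway genes higher and 0 to 3 lower, and 724 to 4176 genes called of all (main 2728, the highest without library 2 and the lowest without library 30). It gave a member median of -0.079 to 0.15 and an S100a11 change of -2.75 to -1.22. Members called higher numbered 0 with library totals alone, 4 with DESeq2, 3 with voom with quality weights and 4 at an adjusted p of 0.1, and members called lower numbered 2 with the 1 CPM filter. Over all genes the shares called higher in those settings were 2.05%, 8.38%, 8.52% and 9.4%, against 5.82% in the fit reported. With the 1 CPM filter 9.02% of all genes were called lower. Other pathway genes called higher numbered 1 with upper-quartile factors, library totals or the 1 CPM filter, 6 with DESeq2 or quality weights and 8 at an adjusted p of 0.1. Those called lower, 0 in the fit reported, numbered 6 with library totals, 2 with upper-quartile factors, DESeq2, quality weights or an adjusted p of 0.1, and 1 with no filter, the 1 CPM filter, voom or the 20 most abundant genes left out. Over all genes 4.22% were called higher with upper-quartile factors and 6.38% with the 1 CPM filter. The shares called lower were 20.5% with library totals, 10.2% with upper-quartile factors, 11% with DESeq2, 11.3% with quality weights and 12.3% at an adjusted p of 0.1. They were 5.48% with no filter, 8.35% with voom and 8.29% with the 20 most abundant genes left out. Genes called of all numbered 4367 with library totals (397 higher and 3970 lower) and 4206 at an adjusted p of 0.1, and upper-quartile factors gave 816 higher and 1980 lower. S100a11 passed with library totals (-1.90, adjusted p = 0.042), voom (-1.89, 0.042) and quality weights (-2.24, 0.0080). The cause of these differences was not tested.

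Library totals alone moved the median of all genes to -0.32 and that of members to -0.27, which is 0.048 above it, as against 0.030 above it with TMM, a gap that scaling alone can hardly alter. With them the sign turned for Ggps1 (-0.26), Fdft1 (-0.098), Lss (-0.28), Lbr (-0.22), Dhcr7 (-0.33), Srebf2 (-0.34), Insig1 (-0.12), Stard4 (-0.19) and Tmem97 (-0.27). Upper-quartile factors turned Lss (-0.029), Dhcr7 (-0.078), Srebf2 (-0.076) and Tmem97 (-0.023), and the 1 CPM filter turned Dhcr7 (-0.013) and Srebf2 (-0.011). None of these was called. Leaving out a library turned the sign in some settings for Ggps1 (-0.060 to 0.19), Fdft1 (-0.19 to 0.51), Lss (-0.12 to 0.27), Cyp51 (-0.43 to 0.019), Sc5d (-0.36 to 0.15), Dhcr7 (-0.079 to 0.11), Srebf2 (-0.037 to 0.092), Insig1 (-0.061 to 0.43), Stard4 (-0.37 to 0.45) and Tmem97 (-0.21 to 0.26). No called member changed sign under any alternative run. Those runs reuse the counts that gave the calls, so a kept sign is no support. Npc1l1, at 1 to 13 counts a library, is limited by depth: it missed the threshold with no filter (adjusted p = 0.089) and DESeq2 (0.13) and was not tested with the 1 CPM filter.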
